A study of Mus musculus with 3 samples.

Results

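The collagen and laminin chain genes encode the subunits of the main structural proteins of the lung matrix. They were taken as all genes whose only symbol in the array's gene annotation has the form of a collagen alpha chain (Col, a number, a, a number) or of a laminin alpha, beta or gamma chain (Lama, Lamb or Lamc with a number). This gave 40 genes of the 8251 genes on the array, 31 collagen and 9 laminin chains, measured by 58 probe sets, and each gene was read from the brightest of its probe sets. By class, 8 are fibrillar collagens, 16 are basement membrane chains (7 collagens and the 9 laminins) and 16 are other collagens.

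The arrays hold 1 lung RNA sample from B16-bearing mice, 1 from LLC-bearing mice and 1 from normal mice (control lung). B16 is a mouse melanoma line and LLC (Lewis lung carcinoma) a line from a mouse lung cancer. Tumour cells had been placed under the skin of the back, and the lungs stand for the stage at which a primary tumour is present elsewhere and tumour cells have not yet reached the lung. The labels state no strain, sex, age or time after injection, and no number of animals for a sample. With 1 array per group there is no replicate, no error and no test, and every difference describes these arrays.

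Collagen chains wind into triple helices, and the fibrillar types (I, II, III, V and XI) pack into the rope-like fibres that give airways, vessels and alveolar walls their tensile strength. Basement membranes are thin sheets under epithelium and around capillaries, built from a collagen IV network and a laminin network, in which each laminin joins 1 alpha, 1 beta and 1 gamma chain. In the alveolus a shared basement membrane lies between the gas-exchanging epithelial cell and the capillary, and matrix remodelling in distant organs is a subject of pre-metastatic niche research.

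Signals are scaled array intensities in arbitrary units, which compare arrays for 1 probe set and not genes with each other. Signals below a floor of 23.6, the 40th percentile of all values, were set to it, so a fold against such a signal is a lower bound. The B16-bearing, LLC-bearing and control arrays had 7303, 7539 and 7517 of 12422 probe sets above the floor, their beta-actin 3' to 5' ratios were 1.56, 1.47 and 1.44, and those of Gapdh were 1.196, 1.001 and 0.957. Lung identity was plain on each array: Sftpc, the surfactant protein of type 2 alveolar cells, read 7482, 7296 and 6206, and 7 of 7 lung epithelium markers were above the floor on each. Signals of other tissues were also found. Heart and skeletal muscle markers above the floor (8, 8 and 10 of 18) summed to 1364, 1178 and 2524, and hepatocyte markers (4, 10 and 4 of 12) to 355, 4090 and 465, in the same order of arrays.

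The stretches around the transcription starts of 4 chain genes are shown first. The genes were picked for their array signals, and no signal difference below uses these sequences. Col4a1 and Col4a2, the chains of the common collagen IV network, were higher in both tumour-bearing lungs. Lama5, an alpha chain of alveolar basement membrane laminin, was the 1 member at least 2-fold higher in either of them, and Col3a1, the fibrillar collagen III chain, had the largest difference of a bright fibrillar probe set. Each window of 300 bases spans the start (RefSeq, GRCm38.p6). They lie at chr8:11312777-11313076 on the minus strand (Col4a1), chr8:11312555-11312854 on the plus strand (Col4a2), chr2:180225810-180226109 on the minus strand (Lama5) and chr1:45311288-45311587 on the plus strand (Col3a1). Capitals mark matches on either strand to the CCAAT box (letters CCAAT), to the GC box that binds Sp1 (letters GGGCGG) and to the TATA box (letters TATAAA).
Col4a1: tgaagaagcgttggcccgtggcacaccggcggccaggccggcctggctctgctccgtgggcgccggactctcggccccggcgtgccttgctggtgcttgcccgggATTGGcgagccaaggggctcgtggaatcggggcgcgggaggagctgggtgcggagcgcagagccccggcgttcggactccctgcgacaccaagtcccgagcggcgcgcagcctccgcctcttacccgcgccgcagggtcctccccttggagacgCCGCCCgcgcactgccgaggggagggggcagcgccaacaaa
Col4a2: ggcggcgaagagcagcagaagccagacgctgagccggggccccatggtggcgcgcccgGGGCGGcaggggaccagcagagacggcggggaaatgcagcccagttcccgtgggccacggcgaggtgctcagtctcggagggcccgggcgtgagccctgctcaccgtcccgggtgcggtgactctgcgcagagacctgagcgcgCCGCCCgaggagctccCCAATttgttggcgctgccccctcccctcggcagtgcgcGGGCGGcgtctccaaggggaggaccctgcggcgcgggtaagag
Lama5: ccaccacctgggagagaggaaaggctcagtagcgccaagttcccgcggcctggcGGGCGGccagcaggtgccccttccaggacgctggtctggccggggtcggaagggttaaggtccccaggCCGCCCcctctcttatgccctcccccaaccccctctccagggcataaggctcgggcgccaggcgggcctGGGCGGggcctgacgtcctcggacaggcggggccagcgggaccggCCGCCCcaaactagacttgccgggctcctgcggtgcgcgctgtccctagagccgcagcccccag
Col3a1: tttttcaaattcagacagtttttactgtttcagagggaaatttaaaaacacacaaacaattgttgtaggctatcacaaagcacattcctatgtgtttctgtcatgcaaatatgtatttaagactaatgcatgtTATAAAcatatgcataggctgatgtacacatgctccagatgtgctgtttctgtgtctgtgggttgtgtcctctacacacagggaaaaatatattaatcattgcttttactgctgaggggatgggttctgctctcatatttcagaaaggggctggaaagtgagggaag

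Col4a1 and Col4a2 are known as a head-to-head pair on opposite strands, and their windows share 78 bases, which hold 1 GGGCGG match. Of 27025 genes with a window, 11.9% share bases with a gene on the other strand, and among the members these were Col4a1, Col4a2 and Lamb1. Windows were found for 27 of the 40 members. TATAAA was present in 2 of 5 fibrillar genes, 0 of 11 basement membrane genes and 15.7% of all genes. GGGCGG was present in 4 of 5, 7 of 11 and 38.2%, and CCAAT in 2 of 5, 5 of 11 and 41.1%, in the same order. These matches describe letters in the windows only.

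Of the 40 members, 25 were above the floor on all 3 arrays, 8 on 1 or 2 arrays and 7 on none. The last are Col4a3, Col8a1, Col11a2, Col15a1, Col17a1, Col19a1 and Col22a1, for which no difference can be given. The plot of signals by gene shows the other 33.

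**Figure D1:**
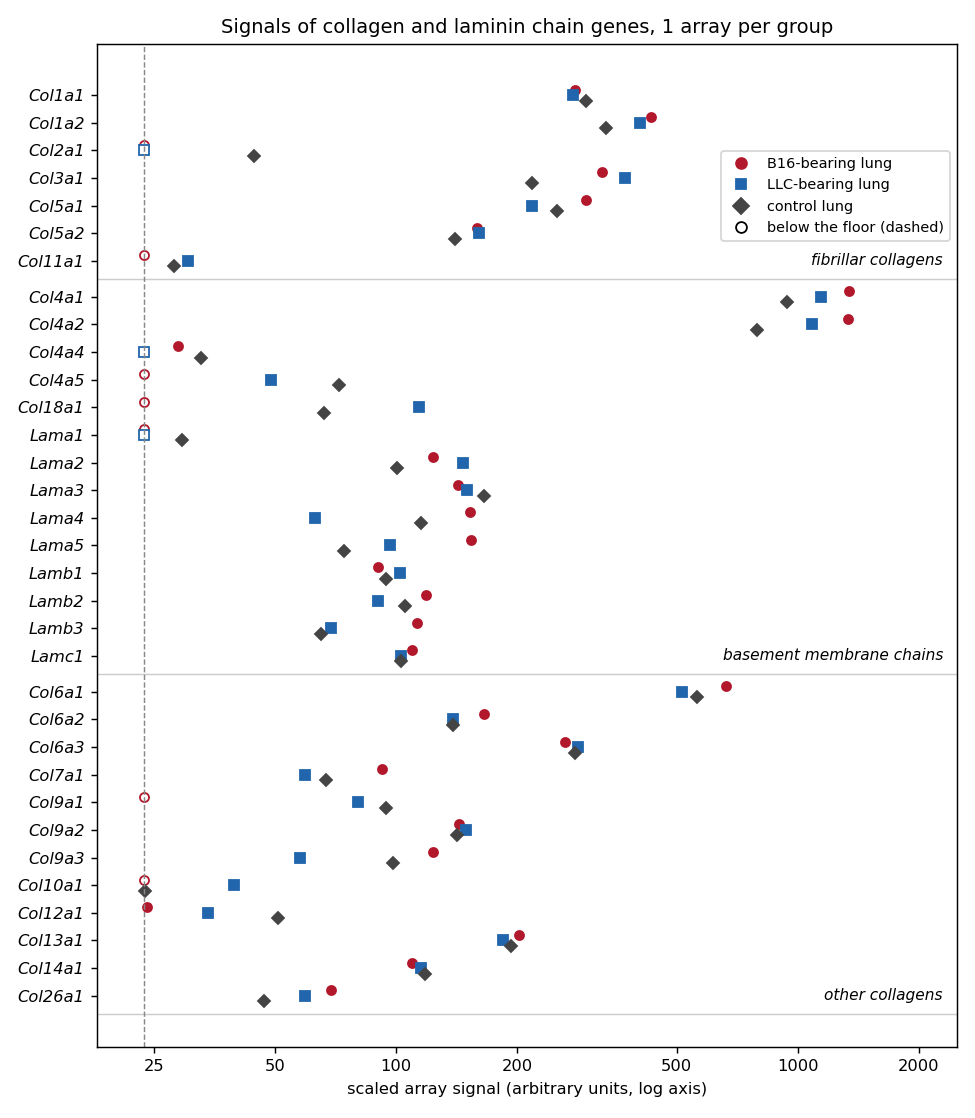
Scaled signal (horizontal, log axis) of the 33 members above the floor on at least 1 array, with a circle for the B16-bearing, a square for the LLC-bearing and a diamond for control lung, 1 array each; open symbols lie below the floor of 23.6, drawn as a dashed line. For Col4a1 and Col4a2 control lung has the lowest of the 3 signals, while for Col1a1 it has the highest.

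The fibrillar collagens lay near the control level. Their median log2 difference from control was 0.18 in B16-bearing lung and 0.12 in LLC-bearing lung over 7 measured genes, beside −0.01 and −0.00 over all measured genes. In each lung 4 of the 7 were higher and 3 lower, beside 49.4% of all genes higher in B16-bearing lung and 49.9% in LLC-bearing lung. With signals set to the floor, 0 of the 7 reached 2-fold, beside 7.96% of all genes in B16-bearing lung and 6.93% in LLC-bearing lung; Col2a1, a bound in both, may differ by more than its bound. In whole lung, a change in the number of cells of a type and a change in RNA per cell cannot be told apart. In what follows, 2 values in parentheses after a gene's signals are its log2 differences from control, that of B16-bearing lung and then that of LLC-bearing lung.

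Col1a1 encodes the chain present in duplicate in collagen I, the most abundant fibrillar collagen. It read 280 in B16-bearing lung, 275 in LLC-bearing lung and 296 in control lung, log2 differences of −0.08 and −0.11. Col1a2, its partner chain, read 432 in B16-bearing and 406 in LLC-bearing lung against 334 in control lung (0.37 and 0.28). The 2 chains of the same protein thus lay on opposite sides of control lung. Their other probe sets were turned the other way: that of Col1a1 read 106.4 in B16-bearing lung and 115.5 in LLC-bearing lung, against 76.7 in control lung (0.47 and 0.59), and that of Col1a2 read 291 in B16-bearing and 289 in LLC-bearing lung against 308 in control lung (−0.08 and −0.09). The Col1a2 probe set used has a name that marks relaxed design rules.

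Col3a1 encodes collagen III, which accompanies collagen I in distensible tissue such as vessel wall and alveolar septum. It read 326 in B16-bearing lung and 371 in LLC-bearing lung against 218 in control lung, 1.49-fold and 1.71-fold higher (0.58 and 0.77). Both tumour-bearing lungs were above control lung on this probe set. A second probe set, whose name marks possible binding of related genes, was below the floor in B16-bearing lung and read 62.1 in the LLC-bearing and 64.1 in control lung. The remaining probe set gave signals under the floor throughout. The direction given for Col3a1 therefore rests on its brightest probe set.

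Col5a1 and Col5a2 encode chains of collagen V, which starts fibrils and limits their width. Col5a1 read 297 in B16-bearing lung and 218 in LLC-bearing lung, against 251 in control lung (0.24 and −0.20), so B16-bearing lung was above and LLC-bearing lung below control lung. Col5a2 read 159 in B16-bearing and 161 in LLC-bearing lung against 140 in control lung (0.18 and 0.20). On the brightest probe sets the differences of both genes were within 1 robust SD of genes of like brightness. The robust SD is a spread read from the median deviation. In B16-bearing and LLC-bearing lung against control, it was 0.31 and 0.25 for mean signals above 200. From 100 to 200 it was 0.43 and 0.33.

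The cartilage-type fibrillar chains were dim. Col2a1, the collagen of cartilage, was below the floor in both tumour-bearing lungs against 44.2 in control lung, at least 1.87-fold lower. Col11a1, which accompanies it in cartilage fibrils, was below the floor in B16-bearing lung and read 30.3 and 28.0 in LLC-bearing and control lung. Of 7 cartilage markers, 3, 2 and 3 were above the floor with summed signals of 351 in B16-bearing lung, 214 in LLC-bearing lung and 279 in control lung, and Matn1, a cartilage matrix protein, was below it throughout. The part of airway cartilage in these values was not tested.

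The basement membrane chains had a median log2 difference of 0.13 in B16-bearing lung and 0.04 in LLC-bearing lung over 14 measured genes. In B16-bearing lung 8 were higher and 6 lower, and in LLC-bearing lung 7 and 7, beside 49.4% and 49.9% of all genes higher. With signals set to the floor, 1 was 2-fold higher and 2 were 2-fold lower in B16-bearing lung, beside 7.96% of all genes at 2-fold. In LLC-bearing lung 0 reached 2-fold, beside 6.93%. The B16-bearing median moved by over 1.5 times under other settings, to 0.30 with either higher floor, 0.36 over members above the floor on all 3 arrays and 0.24 without marked probe sets. In these settings the fibrillar median there was 0.24, 0.24 and 0.18. With the mean over probe sets the medians were 0.13 for basement membrane chains and 0.09 for fibrillar collagens. Which class had the higher median in B16-bearing lung thus depended on the setting. Between B16-bearing and LLC-bearing lung the class median was 0.23 for basement membrane chains and 0.00 for fibrillar collagens. With bounds at their value, basement membrane chains were spread from −1.61 to 1.05 in B16-bearing lung, against −0.91 to 0.58 for the fibrillar collagens there. These ranges cover 14 and 7 genes, and a range tends to widen with more genes. Both low ends are bounds of dim genes (Col4a5 and Col2a1). In LLC-bearing lung the ranges were −0.88 to 0.78 and −0.91 to 0.77. With 1 array per group the difference between the classes was not tested.

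**Figure D2:**
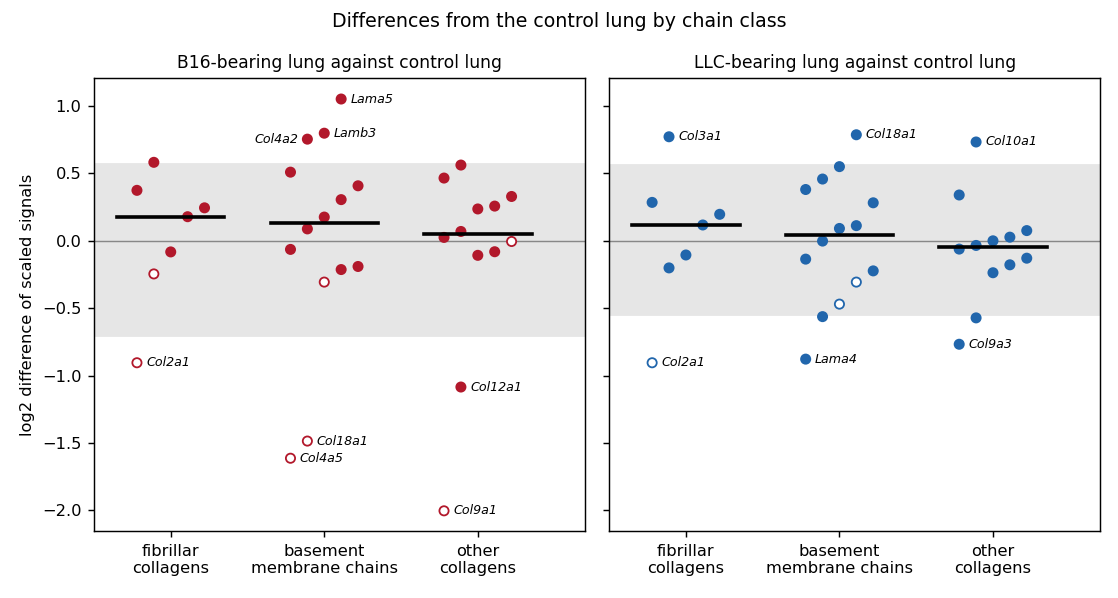
Log2 difference from control lung (vertical) of each measured member in B16-bearing lung (left) and LLC-bearing lung (right), by class; black bars are class medians, open circles are bounds set by the floor, and the grey band holds the middle 80% of all measured genes. The class medians lie between −0.05 and 0.18, and the members farthest from 0 are Col9a1, Col4a5 and Col18a1 in B16-bearing lung.

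The chains of the common collagen IV network were far above the floor and highest in B16-bearing lung. Col4a1 read 1340 in B16-bearing lung and 1144 in LLC-bearing lung against 942 in control lung, 1.42-fold and 1.21-fold higher (0.51 and 0.28). Col4a2 read 1335 in B16-bearing lung and 1087 in LLC-bearing lung, against 792 in control lung, 1.68-fold and 1.37-fold higher (0.75 and 0.46). For each chain the order was B16-bearing, LLC-bearing, control. In the main setting these differences exceeded the robust SD of genes with mean signals above 200, 0.31 in B16-bearing and 0.25 in LLC-bearing lung. That of Col4a1 in LLC-bearing lung did so narrowly. It was 0.22 with quantile normalization, which gives each array the same distribution of signals. Each gene has 1 probe set here, so no second reading could be compared. Endothelium is a main source of collagen IV in lung, and its 12 markers, all above the floor, summed to 10605 in B16-bearing and 9555 in LLC-bearing lung against 9274 in control lung, with median log2 differences of 0.12 and 0.03 from control; their part in the collagen IV values was not tested.

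The minor collagen IV chains, which form the tougher network of alveolar and glomerular basement membrane, were dim. Col4a5 was below the floor in B16-bearing lung and read 48.9 in LLC-bearing lung against 72.2 in control lung, so it was at least 3.06-fold lower in the first and 1.48-fold lower in the second. Col4a4 read 28.6 in B16-bearing lung, was below the floor in LLC-bearing lung and read 32.7 in control lung. Of these, Col4a5 differed by 2-fold, in B16-bearing lung, at a signal where such differences are common (14.6% of genes with mean signals up to 50).

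Col18a1 encodes collagen XVIII, a basement membrane collagen whose end piece is endostatin. It was below the floor in B16-bearing lung and read 114 in LLC-bearing lung against 66.1 in control lung, at least 2.80-fold lower (−1.49) in the first and 1.72-fold higher (0.78) in the second. The 3 arrays are therefore spread widely on this probe set. A second probe set read 58.5 in B16-bearing lung and 51.4 in LLC-bearing lung, against 51.7 in control lung (0.18 and −0.01), and its 3 others were below the floor on each array. Hepatocytes are known to make collagen XVIII, and LLC-bearing lung was also the array with high hepatocyte signals (Alb, serum albumin, read 1327 there and was below the floor in B16-bearing and control lungs); their part was not tested.

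Laminin alpha chains set where a laminin is deposited and which receptors bind it. Lama5 read 154 in B16-bearing lung and 96.5 in LLC-bearing lung against 74.2 in control lung, 2.07-fold and 1.30-fold higher (1.05 and 0.38). Its second probe set read 65.3 in B16-bearing and 56.0 in LLC-bearing lung against 46.4 in control lung (0.49 and 0.27), in the same order and with smaller differences. Lama4, the alpha chain of vascular laminins, read 153 in B16-bearing lung and 62.7 in LLC-bearing lung, against 115 in control lung (0.41 and −0.88). Its second probe set read 66.4 in B16-bearing lung, was below the floor in LLC-bearing lung and read 32.4 in control lung (1.04 and −0.46). Both probe sets of Lama4 thus put B16-bearing lung highest and LLC-bearing lung lowest.

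With signals set to the floor, the other alpha chains differed less than Lama5 and Lama4 in B16-bearing lung. In LLC-bearing lung Lama2 differed by more than Lama5 (0.55 beside 0.38). Lama2, a chain of muscle and mesenchymal basement membranes, read 124 in B16-bearing and 147 in LLC-bearing lung against 100.2 in control lung (0.30 and 0.55). The heart and skeletal muscle markers ran the other way, with median log2 differences of −1.23 in B16-bearing lung and −1.53 in LLC-bearing lung. Those of smooth muscle markers were 0.14 and −0.08. The part of either kind of muscle in the Lama2 values was not tested. Lama3, an alpha chain of the epithelial laminin that anchors hemidesmosomes, read 142 in B16-bearing lung and 150 in LLC-bearing lung, against 165 in control lung (−0.21 and −0.14), from a probe set shared by several transcripts by its name. Lama1, mainly an embryonic chain, was below the floor in both tumour-bearing lungs against 29.2 in control lung.

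Beta and gamma chains complete the laminin trimers. Lamb3, the partner of Lama3 in the anchoring laminin, read 113 in B16-bearing lung and 69.0 in LLC-bearing lung against 64.8 in control lung, 1.74-fold and 1.06-fold higher (0.80 and 0.09). Its partner Lama3 was lower than control in the same B16-bearing lung, so these chains of 1 trimer lay on opposite sides of control there. Lamb1 and Lamc1 are the most widely shared beta and gamma chains. Lamb1 read 90.2 in B16-bearing and 102 in LLC-bearing lung against 94.4 in control lung (−0.07 and 0.11). Lamc1 read 109 in B16-bearing lung and 102.7 in LLC-bearing lung, against 102.9 in control lung (0.09 and −0.00). On these probe sets both chains were close to control in both tumour-bearing lungs. A second Lamb1 probe set read 83.7 in B16-bearing and 88.0 in LLC-bearing lung against 71.5 in control lung (0.23 and 0.30). The Lamc1 probe set used has a name that marks possible binding of related genes. Its other probe set was below the floor in B16-bearing lung and read 28.0 and 27.5 in LLC-bearing and control lung. Lamb2, a beta chain of vessel and muscle basement membranes, read 119 in B16-bearing and 90.2 in LLC-bearing lung against 105 in control lung (0.17 and −0.22). Lama5, which joins these beta and gamma chains, thus had a B16-bearing difference of 1.05 on its brightest probe set, beside −0.07 to 0.17 for Lamb1, Lamb2 and Lamc1. On second probe sets the differences were 0.49 for Lama5, 0.23 for Lamb1 and −0.22, a bound, for Lamc1. The median of the 9 laminin chains was 0.17 in B16-bearing lung (6 higher, 3 lower) and −0.00 in LLC-bearing lung (4 higher, 5 lower). Of all genes, 49.4% and 49.9% were higher.

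Among the other collagens, the bright collagen VI genes were near the control level. Collagen VI forms beaded filaments around cells from 3 chains. Col6a1 read 662 in B16-bearing lung and 514 in LLC-bearing lung against 563 in control lung (0.23 and −0.13). Col6a2 read 165 in B16-bearing lung and 138 in LLC-bearing lung, against 138 in control lung (0.26 and −0.00). Col6a3 read 264 in B16-bearing and 284 in LLC-bearing lung against 279 in control lung (−0.08 and 0.03). On these probe sets the first 2 chains were highest in B16-bearing lung, and all 6 differences lay within 1 robust SD of genes of like brightness. A second Col6a1 probe set, whose name marks possible binding of related genes, was highest in control lung. It read 87.7 in B16-bearing and 88.5 in LLC-bearing lung against 98.1 in control lung (−0.16 and −0.15). Col7a1, the collagen of anchoring fibrils, read 92.4 in B16-bearing lung and 59.2 in LLC-bearing lung, against 67.0 in control lung (0.46 and −0.18). Col10a1, of growth cartilage, was below the floor in B16-bearing lung and read 39.3 in the LLC-bearing and 23.7 in control lung.

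Fibril-associated collagens sit on the surface of fibrils. Col14a1 read 110 in B16-bearing and 115 in LLC-bearing lung against 118 in control lung (−0.11 and −0.04). Col9a2 read 144 in B16-bearing lung and 149 in LLC-bearing lung, against 141 in control lung (0.02 and 0.07). These 2 differed from control by at most 0.11 in either lung. Col9a1 was below the floor in B16-bearing lung and read 80.2 in LLC-bearing lung against 94.6 in control lung, at least 4.01-fold lower in the first and 1.18-fold lower in the second (−2.00 and −0.24). Col9a3 read 123 in B16-bearing and 57.7 in LLC-bearing lung against 98.2 in control lung (0.33 and −0.77), so the chains of collagen IX, made of Col9a1, Col9a2 and Col9a3, gave 3 different patterns. Col12a1 read 23.9 in B16-bearing lung and 34.1 in LLC-bearing lung, against 50.7 in control lung, 2.12-fold and 1.49-fold lower (−1.09 and −0.57), while its second probe set read 40.3 in B16-bearing and 25.2 in LLC-bearing lung against 37.3 in control lung (0.11 and −0.57).

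Of the transmembrane and remaining collagens, Col13a1, a collagen of the cell surface, read 202 in B16-bearing lung and 185 in LLC-bearing lung, against 193 in control lung (0.07 and −0.06) on a probe set named as open to binding by related genes. In B16-bearing lung its other probe set gave a signal under the floor, and it read 40.8 and 74.0 in LLC-bearing and control lung. Col26a1 read 69.0 in B16-bearing and 59.2 in LLC-bearing lung against 46.8 in control lung (0.56 and 0.34).

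Counted at 2-fold, 5 of 33 measured members separated B16-bearing from control lung: Lama5 was higher, and Col4a5, Col9a1, Col12a1 and Col18a1 were lower. Over all measured genes 7.96% differed by as much, 3.23% higher and 4.73% lower. In LLC-bearing lung against control 0 of 33 members reached it with signals set to the floor, beside 6.93% of all genes (3.95% higher and 2.98% lower). Between B16-bearing and LLC-bearing lung 5 of 31 did, beside 8.34% of all genes (3.41% higher and 4.93% lower): Lama4 and Col9a3 were higher in B16-bearing lung, by 2.44-fold and 2.14-fold, and Col18a1, Col9a1 and Col4a5 lower, by at least 4.83-fold, 3.40-fold and 2.07-fold. With the floor at the 60th percentile 1 member (Lama5) remained at 2-fold in B16-bearing lung against control, and 1 (Lama4) between the tumour-bearing lungs. With a floor of 100 these counts were 0 and 0, and with the mean over probe sets the first was 2. Both comparisons with control use the same control array.

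The members at 2-fold were mostly on dimmer probe sets. Of the 8 members with a mean signal above 200, 0 differed by 2-fold in any comparison, and of 11 from 100 to 200, 1 did in B16-bearing lung against control (Lama5). Of the 12 members with mean signals from the floor to 100, 4 did. Among all genes the share at 2-fold in that comparison was 14.6% up to 50, 12.9% from 50 to 100, 5.39% from 100 to 200 and 2.47% above 200. The bright members with a difference beyond the robust SD of their range in both tumour-bearing lungs were Col4a1, Col4a2, Col1a2 and Col3a1. The other measured probe sets of Col1a2 and Col3a1 lay below control in both. With quantile normalization the LLC-bearing differences of Col4a1 and Col1a2 were 0.22 and 0.22, below the 0.25 of the main setting.

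**Figure D3:**
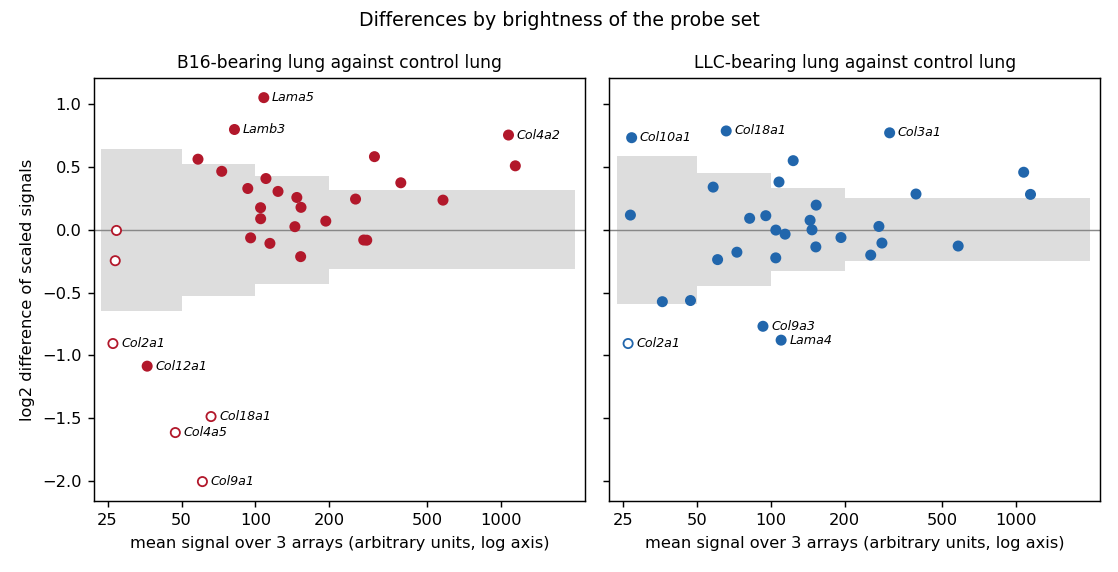
Log2 difference from control lung (vertical) against the mean signal over the 3 arrays (horizontal, log axis) for measured members with a mean above the floor, in the B16-bearing (left) and LLC-bearing lung (right); the grey band is plus and minus 1 robust SD of all genes in 4 ranges of signal, and open circles are bounds set by the floor. The members at least 2-fold lower in B16-bearing lung all have mean signals under 100, where the band is wide, and Col4a1 and Col4a2 lie above the band at the right.

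Probe sets of 1 gene often lay on opposite sides of control lung. Sides were counted whatever the size, so differences near 0 also counted. Examples are Col5a1 in B16-bearing lung (0.24 and −0.06) and Lamc1 in LLC-bearing lung (−0.00 and 0.03). For 12 members a second probe set was measured, and in B16-bearing lung 10 of the 12 had the brightest and the next probe set on opposite sides of control lung, beside 40.7% of 973 genes on the whole array. In LLC-bearing lung 5 of 12 did, beside 44.3% of 991 genes. Lama4 and Lama5 were the 2 members whose probe sets lay on the same side in B16-bearing lung. The 10 were Col1a1, Col1a2, Col3a1, Col5a1, Col6a1, Col12a1, Col13a1, Col18a1, Lamb1 and Lamc1. For the 10, the direction against control in B16-bearing lung thus depends on the probe set read.

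**Figure D4:**
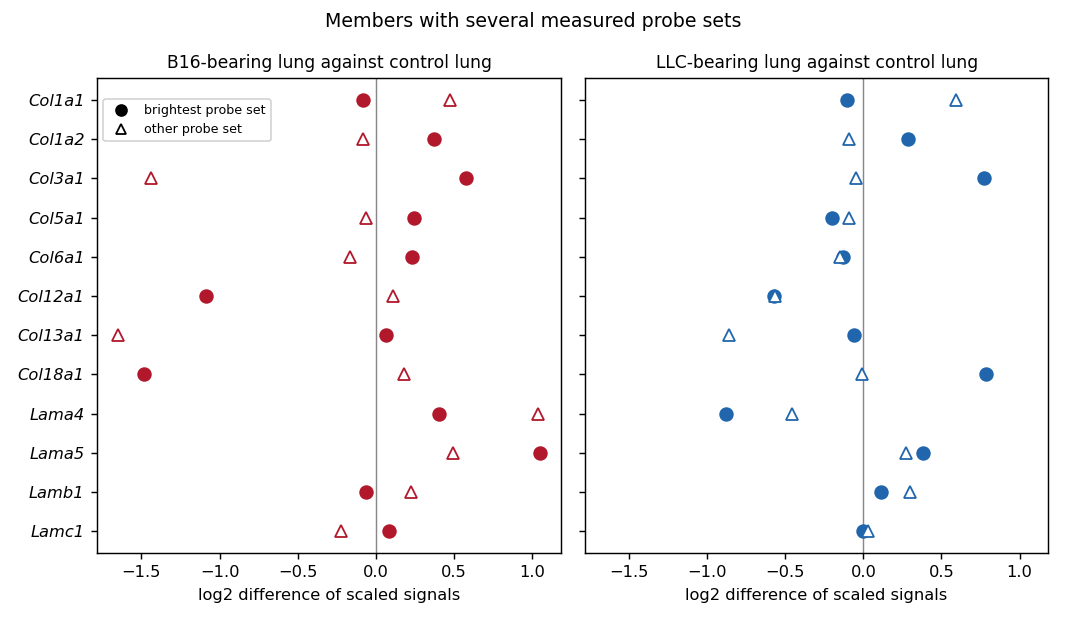
Log2 difference from control lung (horizontal) of each measured probe set of 12 members, in the B16-bearing (left) and LLC-bearing lung (right); filled circles are the brightest probe set, open triangles the others. Circle and triangle lie on opposite sides of 0 for 10 of 12 genes on the left and 5 of 12 on the right, while those of Lama5 and Lama4 lie on the same side in each panel.

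Genes that act with these chains were described from lists. Over all genes 49.4% were higher in B16-bearing lung and 49.9% in LLC-bearing lung, and 7.96% and 6.93% differed by 2-fold. Of the 15 measured genes for collagen processing and crosslinking (30 listed), 10 were higher and 5 lower in B16-bearing lung. In LLC-bearing lung 11 were higher and 4 lower, and the medians were 0.08 and 0.20. Lox, lysyl oxidase, which crosslinks collagen and elastin, read 376 in B16-bearing lung and 37.0 in LLC-bearing lung and was below the floor in control lung, so it was at least 15.9-fold and 1.57-fold higher there. Loxl1, a related enzyme of elastic fibres, read 127 in B16-bearing lung and 59.98 in LLC-bearing lung, against 140 in control lung (−0.15 and −1.23). Serpinh1, the collagen chaperone of the endoplasmic reticulum, read 508 in B16-bearing and 457 in LLC-bearing lung against 482 in control lung (0.08 and −0.07). Of 14 measured collagen-binding matrix proteins, 7 were higher in B16-bearing and 8 in LLC-bearing lung (medians 0.03 and 0.04), near the share of all genes. At 2-fold against control in at least 1 tumour-bearing lung were Matn2 and Tgfbi. Matn2, a matrilin, read 42.7 in B16-bearing lung and 26.9 in LLC-bearing lung, against 186 in control lung. Tgfbi, a secreted adhesion protein, read 122 in B16-bearing and 255 in LLC-bearing lung against 116 in control lung.

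Basement membrane partners had a median of 0.29 in B16-bearing lung (6 of 8 measured higher) and −0.10 in LLC-bearing lung (4 of 9 higher), beside 49.4% and 49.9% of all genes higher. Tinagl1, a matricellular protein of basement membranes, read 244 in B16-bearing lung and 99.8 in LLC-bearing lung, against 89.1 in control lung, 2.74-fold and 1.12-fold higher. Fbln2, fibulin 2, which binds laminin and nidogen, read 126 in B16-bearing and 56.2 in LLC-bearing lung against 60.1 in control lung (1.07 and −0.10). Both showed a high signal in B16-bearing lung with an LLC-bearing signal near control, as Lamb3 did on its brightest probe set. Hspg2, perlecan, the heparan sulfate proteoglycan of basement membranes, was below the floor in B16-bearing and control lungs and read 88.8 in LLC-bearing lung. Nid1, nidogen 1, which links the laminin and collagen IV networks, read 73.1 in B16-bearing lung and 68.4 in LLC-bearing lung, against 59.4 in control lung (0.30 and 0.20). Of 13 measured collagen and laminin receptors, 5 were higher in B16-bearing and 8 in LLC-bearing lung (medians −0.03 and 0.12), beside 49.4% and 49.9% of all genes. With signals set to the floor 0 of the 13 reached 2-fold, beside 7.96% and 6.93% of all genes. Itgb1, the beta 1 chain that pairs with the collagen- and laminin-binding integrin alpha chains Itga2, Itga3, Itga6 and Itga7, read 1589 in B16-bearing and 1631 in LLC-bearing lung against 1596 in control lung. Fibroblast markers, from the cells that make most fibrillar collagen, had medians of −0.09 in B16-bearing lung and −0.07 in LLC-bearing lung over 12 measured genes.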

How the data were processed

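Total RNA from frozen lungs, isolated with TRIzol, was made into biotin-labelled cRNA and read on Affymetrix mouse arrays, per the labels' protocols. Each probe set has 1 deposited intensity per array, on a linear scale. Negative values (about 20.2% to 21.0% of each array) show that a subtraction was made before deposit, of a kind the values do not give. Without the lowest and highest 2% of values, each array had a mean of 100.1. Array software and probe summarisation are not stated in the labels.

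Of 12488 probe sets, 66 manufacturer controls were left out. Each array was multiplied by 1 factor (0.987 for B16-bearing, 1.01 for LLC-bearing, 1 for control) that set the median log2 ratio to control to 0 over the brighter probe sets. Signals under the floor (40th percentile, 23.6) were set to it. A gene was measured in a comparison when 1 of its 2 arrays was above the floor. Names came from the platform annotation; 40 of 40 member symbols were the same in RefSeq. Every member above the floor was given; of other lists, up to 4 genes at 2-fold, and Serpinh1, Nid1, Itgb1 and the marker genes named were chosen after their values were seen. Members and lists were chosen with earlier results of these data known. Arrays carry no depth, and their number limits the precision. Calculations used Python 3.11.15, numpy 2.4.6 and pandas 2.3.3 and were tested on simulated data.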

Additional observations from a re-analysis of the deposited data

Results flagged for a closer look

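The 3 members named here differed by at least 2-fold between the tumour-bearing lungs and lay on opposite sides of the control lung; with 1 array per group this difference was not tested. Lama4 had a log2 difference of 1.29 between the B16-bearing and the LLC-bearing lung and Col9a3 of 1.10. That of Col18a1 was −2.27, a bound, since its B16-bearing signal was below the floor. The second measured probe set of Col18a1 gave 0.19, that of Lama4 gave 1.49, a bound set by an LLC-bearing signal below the floor, and the other probe set of Col9a3 was below the floor on all 3 arrays.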

How the results depend on the processing

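No paired analysis was possible because each group has 1 array. Alternatives for the scaling, the floor, the probe set and the filter were fixed with earlier results known, and scaling by the median signal of each array and leaving out members on marked probe sets were added after seeing the data. Scaling by the median signal moved the median of all genes in B16-bearing lung against control to 0.099, the fibrillar median to 0.29 and the basement membrane median to 0.24; between B16-bearing and LLC-bearing lung the class medians were then 0.13 and 0.35, against 0.00 and 0.23. The basement membrane median in B16-bearing lung was 0.30 with a floor at the 60th percentile or at a signal of 100, 0.36 over members above the floor on all 3 arrays and 0.24 without marked probe sets. The fibrillar median was then 0.24, 0.24 and 0.18, so the order of the 2 classes changed from that of the main setting. The 5 members at 2-fold in B16-bearing lung against control became 1 (Lama5) with the floor at the 60th percentile, 0 with a floor of 100, 2 over members above the floor on all arrays (Col12a1 and Lama5) and 2 with the mean over probe sets (Col4a5 and Col9a1). Of the 5 between the tumour-bearing lungs, the higher floors left 1 (Lama4) and 0, and the filter on all arrays left 2 (Col9a3 and Lama4). The count of 0 in LLC-bearing lung did not change under any of these. Of 695 recomputed member differences, 674 moved by less than 0.42, the robust SD between the tumour-bearing lungs, 21 by more, and 0 of the 2-fold differences changed sign. Scaling by 1 factor per array shifts the differences of a comparison nearly alike, and differences no longer measured under a setting were left out. These counts are therefore no test of stability. With the mean over probe sets, the Col3a1 difference in B16-bearing lung was −0.43. Signal near background limits the dim chains.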
